A study of Mus musculus with 12 samples.

Results

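The genes described here are 10 markers of the resting Müller glial cell, the radial support cell of the retina: Glul, Slc1a3, Aqp4, Kcnj10, Car14, Rlbp1, Sox9, Dkk3, Abca8a and Crym. They were taken by symbol, as 10 of the 50559 genes in the deposited count table. All 10 passed the filter on low counts in every comparison. RNA was sequenced from 12 retinal samples of wild type C57BL6/J mice, 3 libraries in each of 4 groups. At postnatal day (P) 1 all pups received 30 µg of antibody, either an IgG isotype control (IgG and IgG+Mino groups) or the rat anti-mouse PDGFRB clone APB5 (APB5 and APB5+Mino groups), which blocks the receptor that recruits pericytes to growing retinal vessels. The IgG+Mino and APB5+Mino groups were also given minocycline, a tetracycline antibiotic that dampens microglial activation, by daily intraperitoneal injection from P5 to P27, and retinas were collected at P28. The antibody was given to neonates while the retinal vessels grow, so the APB5 groups model loss of pericytes during development and not in the adult. The study describes its sequencing replicates as mice, although the labels do not tie a library to an animal, and P values measure the spread between these libraries. The comparisons ask whether the resting Müller gene program moved with APB5 or with minocycline, and whether it moved together with the genes of gliosis.

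Müller glia span the retina and take up the glutamate and potassium that neurons release, move water, buffer acid, and supply cones with recycled visual pigment chromophore. In injured retina they enter gliosis, in which the intermediate filament gene Gfap and genes of cytokine signalling are switched on, while the genes of the resting cell may be kept or lost. Most retinal RNA comes from rods, so that the RNA of a minority cell type such as Müller glia is read here against a large background. In bulk RNA, fewer Müller cells and less RNA per cell cannot be told apart.

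Library totals ran from 52740545 to 59411044 counts, and single counts of the 10 genes ran from 618 (Sox9) to 163025 (Glul). Levels are given as CPM, counts scaled to a common library size with the trimmed mean of M values. The summed level of 10 rod markers lay between 49860 and 74240 CPM in 11 libraries. It was 13190 CPM in APB5 replicate 3, which also held 620.0 CPM of 8 pigment epithelium markers (38.9 to 143.5 CPM elsewhere), 288 CPM of 9 microglial markers (23.1 to 74.8) and 6790 CPM of 21 gliosis genes (614 to 1014). None of these markers was at 0 in all libraries. Of 21228 genes, 49% lay outside the range of the other 11 libraries in APB5 replicate 3, and values without it are given beside the results that it moves most. Xist, the RNA of the silenced X chromosome of female cells, had at least 47210 counts in 5 libraries and at most 38 in 7. The high libraries were all 3 of IgG, 0 of 3 of IgG+Mino, and replicate 3 of both APB5 and APB5+Mino. Sex and minocycline therefore cannot be told apart in the IgG groups. In APB5 against IgG only replicate 3 of APB5 was high, beside all 3 of IgG, so antibody is mixed with sex in part. Without APB5 replicate 3, sex and antibody cannot be told apart at all in this comparison. Pdgfrb RNA itself, which a blocking antibody need not alter, was at 15.5 ± 3.99 CPM in IgG and 23.2 ± 12.8 CPM in APB5 (SD, n = 3). The groups overlapped, with 15.4 and 16.3 CPM in APB5 replicates 1 and 2, below replicate 3. The 7 pericyte markers, Pdgfrb among them, summed to 102.8 to 117.9 CPM in IgG and 130.4 to 391.2 CPM in APB5. Of these, 5 had a log2 fold change above 0 and 2 below (median 0.60), beside 49.7% of all genes above 0. RNA of these markers therefore did not show a loss of pericytes. The study reports lower pericyte coverage by staining at an earlier age.

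To compare levels between genes, CPM were divided by the kilobases of annotated exon of each gene. On this scale Glul, which encodes the glutamine synthetase that turns glutamate into glutamine, stood highest in the IgG retinas, with 605 ± 94.1 CPM per kilobase (SD, n = 3). Rlbp1 (117 ± 13.4), encoding the retinaldehyde carrier CRALBP, and Dkk3 (115 ± 12.1), encoding a secreted Dickkopf family protein, came next with overlapping values. Car14, a membrane-bound carbonic anhydrase, followed at 30.7 ± 2.02 and Abca8a, a transporter of the ABC family, at 23.9 ± 1.70, and neither overlapped its neighbours. Crym, encoding the thyroid hormone binding protein mu-crystallin (13.5 ± 2.88), the potassium channel gene Kcnj10 (12.1 ± 1.34), the glutamate transporter gene Slc1a3 (10.7 ± 1.89) and the water channel gene Aqp4 (8.99 ± 2.06) formed a run in which each overlapped the next. Sox9, a transcription factor of glial and progenitor cells, was lowest at 2.99 ± 0.108 and separate from Aqp4. The exon length of Slc1a3, 14.6 kilobases over all annotated transcripts, is longer than that of any other of these genes, which lowers its value on this scale. Glul ranked first and Sox9 last in all 4 groups, and Car14 kept position 4. Crym moved most in rank, from position 6 in IgG and 8 in IgG+Mino to 5 in APB5, a mean that includes the high replicate 3, and 9 in APB5+Mino.

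**Figure D1:**
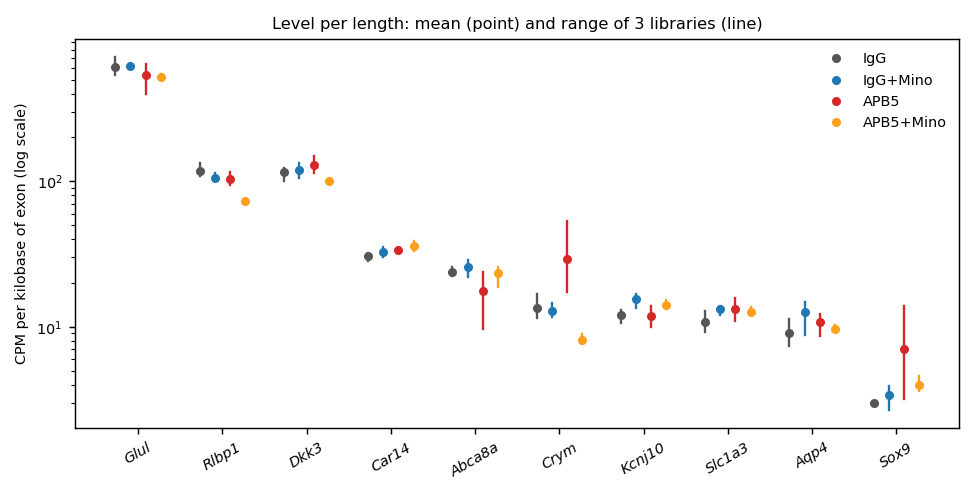
Level of each of the 10 genes per kilobase of exon (log axis, CPM per kilobase), with the mean of 3 libraries as a point and their range as a line, colored by group. Glul lies at 524 to 624 CPM per kilobase in the 4 group means and Sox9 at 2.99 to 7.08, and the Crym points spread from 8.05 in APB5+Mino to 29.4 in APB5.

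All 10 genes are protein coding. On GRCm39, Glul lies on the plus strand of chromosome 1 from 153775690 to 153785469 and Rlbp1 on the minus strand of chromosome 7 from 79024602 to 79038176. Crym lies on the minus strand of chromosome 7 from 119785530 to 119801514. Rlbp1, Dkk3, Abca8a and Crym overlap no other annotated gene, whereas Glul overlaps Teddm2 on the opposite strand, Car14 overlaps Aph1a, and Slc1a3, Aqp4, Kcnj10 and Sox9 each overlap at least 1 noncoding or unclassified gene. Whether counting used strand is not given in the sources used here, so reads of the overlapping pairs may be mixed. Abca8a has a close paralog, Abca8b, and its counts are uncertain to the extent that reads were shared.

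RefSeq promoter windows of 300 bases, 250 before and 50 after the start site, were at hand for 6 of the 10 genes (Glul, Slc1a3, Rlbp1, Kcnj10, Car14 and Abca8a, GRCm38.p6), and not for Crym, Sox9, Dkk3 and Aqp4. They were searched on both strands for ACAAAG and ACAAT, letters bound by SOX factors such as the product of Sox9, for TTGGC, the letters of a nuclear factor I monomer, and for TAATCC, the letters of CRX and OTX2. ACAAAG was found in 2 of the 6 windows, against 18.7% of 32851 windows in the whole table, ACAAT in 2 (31.0%), TTGGC in 4 (46.7%) and TAATCC in 1 (7.06%). The 2 windows with ACAAAG are shown, since Rlbp1 is 1 of the 2 genes that passed edgeR's quasi-likelihood test between APB5+Mino and IgG+Mino and Kcnj10 did not pass there, and the capitals mark the match. In Rlbp1 (chr7:79386978-79387277, minus strand) the match is on the reverse strand, CTTTGT, beginning 42 bases before the start site, and in Kcnj10 (chr1:172340960-172341259, plus strand) it begins at the start site itself. Both are printed 5′ to 3′ in the direction of transcription.
Rlbp1: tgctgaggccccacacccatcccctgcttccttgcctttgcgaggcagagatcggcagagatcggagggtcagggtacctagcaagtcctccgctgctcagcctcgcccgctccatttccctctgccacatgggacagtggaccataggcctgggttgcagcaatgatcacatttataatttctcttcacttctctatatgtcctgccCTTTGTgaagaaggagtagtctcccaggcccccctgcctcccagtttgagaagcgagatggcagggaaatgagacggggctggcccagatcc
Kcnj10: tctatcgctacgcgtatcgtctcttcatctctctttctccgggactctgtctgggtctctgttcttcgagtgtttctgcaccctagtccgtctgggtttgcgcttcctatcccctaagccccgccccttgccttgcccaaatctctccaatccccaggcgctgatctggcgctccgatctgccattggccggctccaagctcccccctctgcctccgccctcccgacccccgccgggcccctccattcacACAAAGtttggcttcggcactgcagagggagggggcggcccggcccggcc

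Among the genes of glutamate handling, Glul stood above Slc1a3 in every library. Glul was at 2128, 2226 and 2815 CPM in IgG, at 2403, 2470 and 2519 in IgG+Mino, at 2520, 2304 and 1570 in APB5 and at 2166, 2040 and 1995 in APB5+Mino. The value in APB5 replicate 3 was the lowest of the 12, and the other 2 APB5 libraries lay inside the IgG range. Slc1a3, which encodes the glial glutamate transporter GLAST, was at 133, 150 and 187 CPM in IgG, at 176, 203 and 198 in IgG+Mino, at 192, 159 and 229 in APB5 and at 180, 199 and 178 in APB5+Mino. Its highest value was in APB5 replicate 3, opposite to Glul, and all 4 groups otherwise overlapped.

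The water and potassium channel genes work as a pair at the Müller endfoot, where AQP4 water channels and the Kir4.1 channels encoded by Kcnj10 face vessels and vitreous. Aqp4 was at 47.9, 54.8 and 74.0 CPM in IgG, at 57.5, 96.4 and 95.4 in IgG+Mino, at 80.7, 74.3 and 56.3 in APB5 and at 62.4, 67.3 and 60.4 in APB5+Mino. Kcnj10 was at 57.4, 70.4 and 69.4 CPM in IgG, at 72.6, 89.1 and 91.7 in IgG+Mino, at 64.1, 74.7 and 54.2 in APB5 and at 72.1, 82.6 and 76.4 in APB5+Mino. Both had their highest values in IgG+Mino replicates 2 and 3, and for Kcnj10 the IgG+Mino libraries lay above the 3 IgG libraries. Car14, which buffers acid at the Müller surface, had 92.6, 103 and 105 CPM in IgG, 115, 98.3 and 105 in IgG+Mino, 111, 107 and 114 in APB5 and 127, 116 and 109 in APB5+Mino.

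Rlbp1, whose protein carries 11-cis-retinoids in Müller glia and in the pigment epithelium, separated 1 group from the rest. It was at 396, 391 and 476 CPM in IgG, at 408, 362 and 366 in IgG+Mino, at 412, 337 and 362 in APB5 and at 258, 257 and 269 in APB5+Mino. The 3 APB5+Mino libraries were the lowest of the 12 and close to each other (261 ± 6.82 CPM, SD, n = 3), whereas APB5 replicate 3, with the highest sum of pigment epithelium markers, lay within the range of the others.

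Crym was at 44.6, 47.5 and 65.4 CPM in IgG, at 56.6, 49.4 and 45.2 in IgG+Mino, at 70.2, 67.6 and 207 in APB5 and at 34.5, 30.0 and 29.6 in APB5+Mino. All 3 APB5 libraries lay above IgG, replicate 3 by far, and all 3 APB5+Mino libraries were the lowest of the 12. Sox9 was at 12, 12.9 and 12.7 CPM in IgG, at 11.2, 16.4 and 15.1 in IgG+Mino, at 17.6, 13.3 and 57.8 in APB5 and at 16, 19.0 and 15.0 in APB5+Mino. Here the distance of APB5 from IgG lay mostly in replicate 3. Dkk3 was at 690, 847 and 815 CPM in IgG, at 725, 808 and 912 in IgG+Mino, at 844, 776 and 1025 in APB5 and at 706, 675 and 685 in APB5+Mino. Abca8a was at 154, 168 and 146 CPM in IgG, at 144, 187 and 178 in IgG+Mino, at 127, 155 and 62.8 in APB5 and at 122, 169 and 164 in APB5+Mino, again with replicate 3 of APB5 far from the rest.

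**Figure D2:**
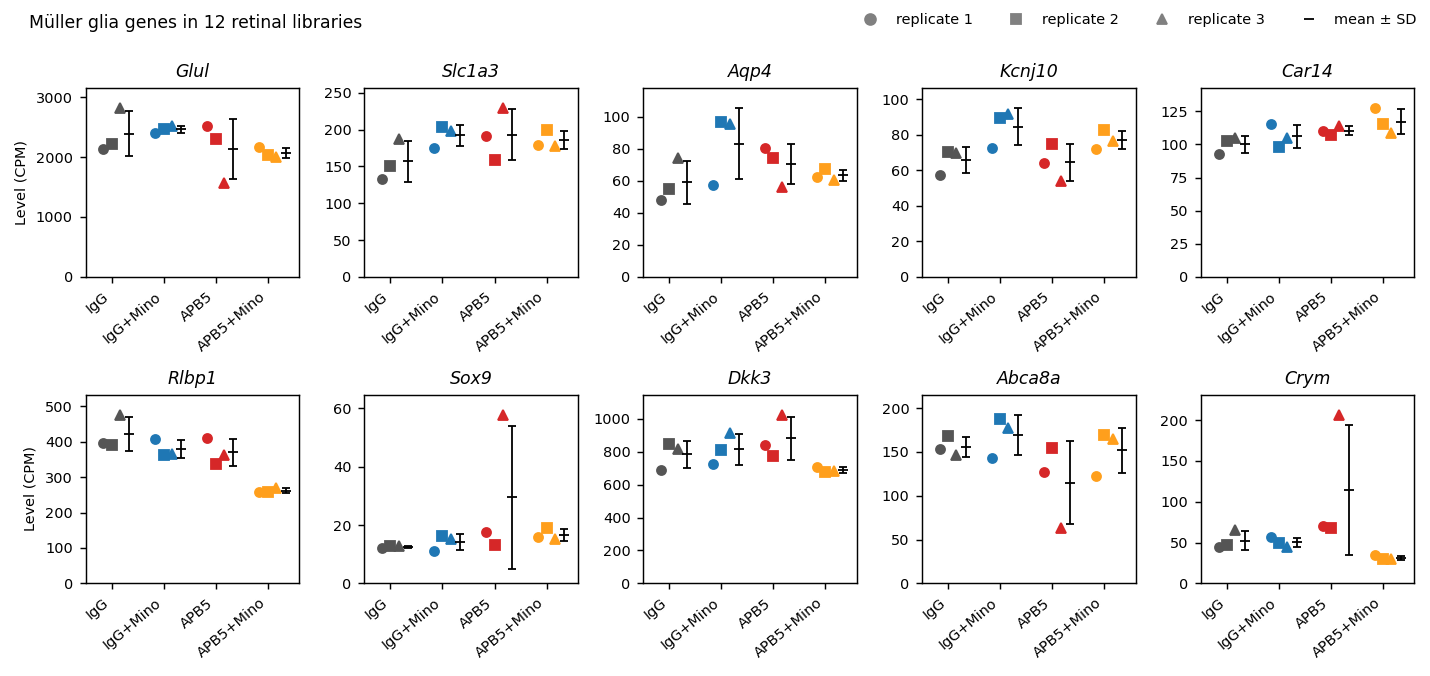
Level of each gene (CPM, axes from 0) in the 12 libraries by group, with circles, squares and triangles for replicates 1, 2 and 3 and the mean ± SD of 3 libraries beside them. Rlbp1 and Crym lie lowest in all 3 APB5+Mino libraries (257 to 269 and 29.6 to 34.5 CPM), and APB5 replicate 3 stands apart for Sox9 (57.8 CPM), Crym (207), Glul (1570) and Abca8a (62.8).

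APB5 replicate 3 did not shift the 10 genes in 1 direction. It lay above all 11 other libraries for 4 of them (Slc1a3, Sox9, Dkk3 and Crym), below all 11 for 3 (Glul, Kcnj10 and Abca8a) and within their range for Rlbp1, Aqp4 and Car14. Of all 21228 genes, 5216 lay above all 11 others in this library and 5192 below. The ratio to the mean of the other 2 APB5 libraries was largest for Sox9 (3.74) and Crym (3) and smallest for Abca8a (0.445) and Glul (0.651).

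APB5 against IgG was the comparison of the antibody without minocycline, and Xist also differed between these groups. Of the 10 genes 0 passed edgeR's quasi-likelihood test at an adjusted P of 0.05, and so did 0 of 20350 genes (0%). The largest differences were those of Sox9 (log2 fold change 1.26, SE 0.525, adjusted P = 0.664 by the same test) and Crym (1.15, SE 0.449, adjusted P = 0.664), the 2 of the 10 with an unadjusted P under 0.05, against 7.23% of all genes. Without APB5 replicate 3 these values were 0.31 for Sox9 and 0.39 for Crym. The 3 APB5 libraries lay above all IgG libraries for 3 genes (Car14, Sox9 and Crym), against 7.79% of all genes, and below them for none (7.89%). Glul, the enzyme most used to identify Müller glia, differed by -0.16 (95% interval -0.71 to 0.39), or by 0.02 without APB5 replicate 3. Rlbp1 (-0.17, -0.53 to 0.19), Kcnj10 (-0.02, -0.38 to 0.34) and Aqp4 (0.27, -0.20 to 0.73) had 95% intervals across 0. Abca8a differed by -0.44, of which -0.14 was left without APB5 replicate 3. The median over the 10 genes was a log2 fold change of 0.17, with 6 above 0 and 4 below, beside -0.0025 over all genes tested. DESeq2 called 0 of the 10 and 0.485% of all genes, and voom with quality weights 0 of the 10 and 0.143%.

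With a covariate for Xist in a fit of all 12 libraries, Sox9 (1.69, adjusted P = 0.0213) and Crym (1.54, adjusted P = 0.0158) passed the quasi-likelihood test in APB5 against IgG, where 6.97% of all genes did. This fit still held APB5 replicate 3. Within groups, Xist differed mainly between replicate 3 and the other libraries of APB5 and APB5+Mino. The covariate itself therefore rests in large part on APB5 replicate 3.

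Between APB5+Mino and APB5, the comparison of minocycline in APB5-injected retinas, Rlbp1 and Crym had adjusted P values just above the threshold. In all, 0 of the 10 genes passed edgeR's quasi-likelihood test, against 4.82% of 20281 genes. Rlbp1 differed by -0.52 (SE 0.120, adjusted P = 0.0519) or -30.0%, and Crym by -1.89 (SE 0.451, adjusted P = 0.0529), or -73.1%. With the replicate numbers as a block, the adjusted P by the same test was 0.0738 for Rlbp1 (-0.51) and 0.0712 for Crym (-1.67), and 0 genes in all passed (0%). These were also the 2 of the 10 with an unadjusted P under 0.05, against 35.9% of all genes. Without APB5 replicate 3, 3 of the 10 passed, against 26.6% of genes: Rlbp1 (-0.52, adjusted P = 0.00896), Crym (-1.14, adjusted P = 0.000447) and Aqp4 (-0.30, adjusted P = 0.0336). Without APB5 replicate 2, where 20.1% of genes passed, so did Rlbp1 (-0.58, adjusted P = 0.0337) and Crym (-2.17, adjusted P = 0.033). Rlbp1 and Crym thus each passed in 2 of the 6 fits that left out 1 library. In the remaining fits neither passed, with adjusted P up to 0.215 for both by edgeR's quasi-likelihood test. At most 0.00479% of all genes passed in those fits. The difference of Rlbp1 was -0.52 with and without APB5 replicate 3, and that of Crym -1.89 and -1.14.

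For 3 genes (Rlbp1, Dkk3 and Crym) all APB5+Mino libraries lay below all APB5 libraries, against 22.8% of all genes, and for none above (23.5%). By edgeR's quasi-likelihood test Dkk3 differed by -0.37 (SE 0.160, adjusted P = 0.144), and by -0.24 without APB5 replicate 3. The differences of Glul (-0.06, 95% interval -0.57 to 0.46, and -0.23 without that library), Slc1a3 (-0.07, -0.44 to 0.30) and Car14 (0.07, -0.16 to 0.30) were small against their intervals. Sox9 differed by -0.85, and by 0.11 without APB5 replicate 3. The median over the 10 genes was -0.12, beside -0.021 over all genes tested. DESeq2 called 2 of the 10 (Rlbp1 and Crym, beside 27% of genes) and voom with quality weights 4 (Rlbp1, Aqp4, Dkk3 and Crym, beside 34.5%). A fit of the libraries low in Xist, 2 of APB5 and 2 of APB5+Mino, called 9.36% of genes, among them Rlbp1 (-0.55, adjusted P = 0.0447) and Crym (-1.10, adjusted P = 0.00572). The 9 microglial markers summed to 23.1 to 26.2 CPM in APB5+Mino and 60.0 to 288 CPM in APB5. The 8 pigment epithelium markers summed to 38.9 to 67.6 and 88.7 to 620.0 CPM. Of the microglial markers 1 passed the test (Cx3cr1) and of the pigment epithelium markers none, beside 2.03% of all genes that fell. All 9 microglial and 3 of the 8 pigment epithelium markers were lower without overlap, against 22.8% of all genes. Their part in the differences of Rlbp1 and Crym was not tested.

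Between APB5+Mino and IgG+Mino, both under minocycline, 2 of the 10 genes fell by edgeR's quasi-likelihood test, against 3.28% of 20049 genes that fell. Rlbp1 fell by 0.53 on the log2 scale (SE 0.0845, 95% interval -0.72 to -0.34, adjusted P = 0.0156), a change of -30.9%. Crym fell by 0.68 (SE 0.114, -0.94 to -0.43, adjusted P = 0.0173), a change of -37.7%. None of the 10 rose, against 4.8% of genes. Glul, at -0.25 (SE 0.0718, adjusted P = 0.0605), and Dkk3, at -0.24 (SE 0.0924, adjusted P = 0.125), did not pass the same test, although all 3 APB5+Mino libraries lay below all 3 IgG+Mino libraries for both, as for Rlbp1 and Crym. These 4 of 10 stand beside 17.6% of all genes that were lower without overlap. Slc1a3 (-0.05, 95% interval -0.24 to 0.15), Kcnj10 (-0.13, -0.36 to 0.10), Abca8a (-0.15, -0.47 to 0.16) and Car14 (0.15, -0.07 to 0.36) had intervals across 0.

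The 2 calls under minocycline rested on few libraries. Adjusted P rose to 0.0679 for Rlbp1 and 0.0674 for Crym by edgeR's quasi-likelihood test without IgG+Mino replicate 3, to 0.0881 and 0.0928 without APB5+Mino replicate 2, and to 0.0947 and 0.106 without APB5+Mino replicate 3, omissions after which 0.0244%, 0% and 0.00978% of all genes passed. Without IgG+Mino replicate 1, where 16.4% of genes passed, 5 of the 10 did: Glul (-0.26), Rlbp1 (-0.47), Aqp4 (-0.59), Dkk3 (-0.31) and Crym (-0.58). Over all 6 omissions the log2 difference ranged from -0.57 to -0.47 for Rlbp1 and from -0.77 to -0.58 for Crym. Neither passed when all 12 libraries shared 1 estimate of the spread (adjusted P = 0.0955 and 0.345) or with the Xist covariate (0.111 and 0.147), edgeR's quasi-likelihood test in both, and in these 2 fits 0% of genes passed.

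Markers of other cells moved in the same comparison. Of 10 rod markers 3 fell, against 3.28% of all genes, among them Gnat1 and Rom1, while Rp1 was at 0.15 (adjusted P = 0.485, edgeR's quasi-likelihood test), and their summed level was 49860 to 53550 CPM in APB5+Mino and 63330 to 68180 in IgG+Mino. Of 9 microglial markers 4 fell (3.28% of all genes), among them Cx3cr1, Tyrobp and C1qa, with sums of 23.1 to 26.2 and 37.6 to 44.5 CPM. Of 8 pigment epithelium markers none passed, with sums of 38.9 to 67.6 and 42.9 to 143.5 CPM, and Rpe65, the isomerase that defines that cell, was at 3.50 to 6.20 and 2.37 to 16.4 CPM. Their part in the fall of Rlbp1 and Crym was not tested.

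Between IgG+Mino and IgG, the comparison of minocycline in IgG-injected retinas, 0 of the 10 genes passed edgeR's quasi-likelihood test, against 0.0298% of 20143 genes. The largest differences were those of Aqp4 (0.50, SE 0.220, adjusted P = 0.585), Kcnj10 (0.36, SE 0.137, adjusted P = 0.585) and Slc1a3 (0.29, SE 0.142, adjusted P = 0.585), channel and transporter genes of the endfoot and the glutamate cycle. Aqp4 and Kcnj10 had an unadjusted P under 0.05, as did 8.37% of all genes, and voom with quality weights called all 3 beside 6.03% of genes, whereas DESeq2 called 0 of the 10 and 0.273% of genes. Kcnj10 was the 1 gene of the 10 whose groups did not overlap, higher in IgG+Mino, against 7.03% of all genes. Rlbp1 (-0.15, 95% interval -0.42 to 0.12) and Crym (-0.06, -0.43 to 0.31) did not pass.

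**Figure D3:**
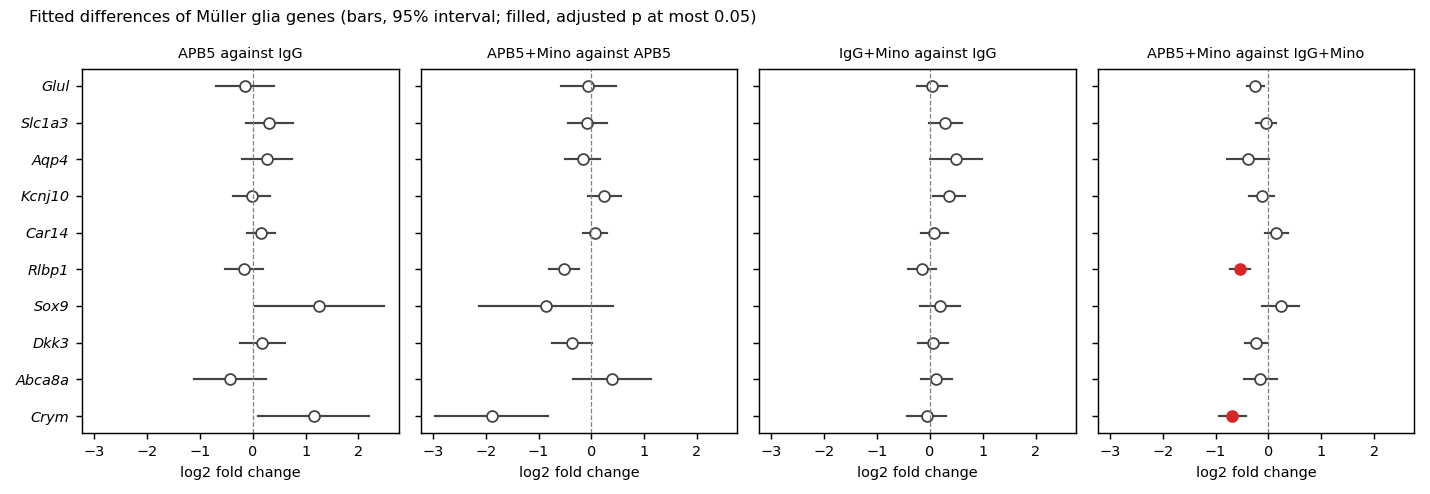
Log2 fold change of each gene in the 4 comparisons, with the 95% interval as a bar and filled symbols for an adjusted P of at most 0.05 (edgeR's quasi-likelihood test). The filled symbols are Rlbp1 (-0.53) and Crym (-0.68) in APB5+Mino against IgG+Mino, and the widest bars are those of Sox9 and Crym in the comparisons that hold APB5.

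Whether minocycline acted differently in APB5- and IgG-injected retinas was tested as an interaction over all 12 libraries. By edgeR's quasi-likelihood test 0 of the 10 genes and 0.0141% of 21228 genes passed. Crym had the largest term (-1.82, SE 0.501, adjusted P = 0.159), and Aqp4 (-0.65, SE 0.292, adjusted P = 0.285) was the other with an unadjusted P under 0.05, as 17.1% of genes had. The term of Rlbp1 was -0.35 (95% interval -0.72 to 0.02, adjusted P = 0.313). Crym passed with DESeq2 (adjusted P = 0.0143, beside 4.03% of genes), with voom and quality weights (0.00467, beside 14.9%) and with the Xist covariate (0.0173, beside 4.61%), and without APB5 replicate 3 its term was smaller, at -1.09, and that of Aqp4 was -0.80.

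The genes of gliosis are set beside those of the resting cell. Between APB5 and IgG all 21 gliosis genes had a log2 fold change above 0, as did 49.7% of all genes. Both lists were chosen with earlier results of these data known, so their directions are a description. The median of the gliosis genes was 2.01, and 0.86 without APB5 replicate 3, where the 10 resting genes had 0.17 and 0.10. Gfap, the filament of reactive glia, was at 52.7, 52.9 and 46.3 CPM in IgG and at 130, 147 and 1010 CPM in APB5. For 15 of the 21 the APB5 libraries lay above all IgG libraries, against 7.79% of all genes. None of the 21 passed edgeR's quasi-likelihood test with all libraries (smallest adjusted P = 0.664). Without APB5 replicate 3 Gfap (1.45, adjusted P = 0.0117), Lcn2 (1.33, adjusted P = 0.043) and A2m (1.73, adjusted P = 0.0121) rose by the same test, where 0.101% of genes passed and 0 of the 10 resting genes did. Leaving that library out makes every APB5 library low in Xist and every IgG library high, so antibody and sex cannot be told apart there. Other filament, matrix and signalling genes had smaller values without that library: Vim was at 1.03 with it and 0.17 without, Nes at 1.03 and 0.24, Timp1 at 5.08 and 0.99, Stat3 at 1.07 and 0.74, Cd44 at 1.98 and 0.79 and Serpina3n at 5.72 and 1.38. Retinal astrocytes also express Gfap and Vim, and 6 astrocyte markers summed to 66.7 to 89.3 CPM in IgG and 98.9 to 221 CPM in APB5, all 6 with a log2 fold change above 0 (median 0.88) and 0 past the test. Pdgfra, the receptor gene of the astrocyte lineage, was at 10.9, 13.3 and 12.5 CPM in IgG and at 22.8, 24.2 and 65.6 CPM in APB5. The sums were 61.0 to 86.4 CPM in IgG+Mino and 52.4 to 62.9 CPM in APB5+Mino. Of the 6 markers, 2 fell in APB5+Mino against APB5, beside 2.03% of all genes, and 1 against IgG+Mino, beside 3.28%. Their part in the gliosis values was not tested.

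**Figure D4:**
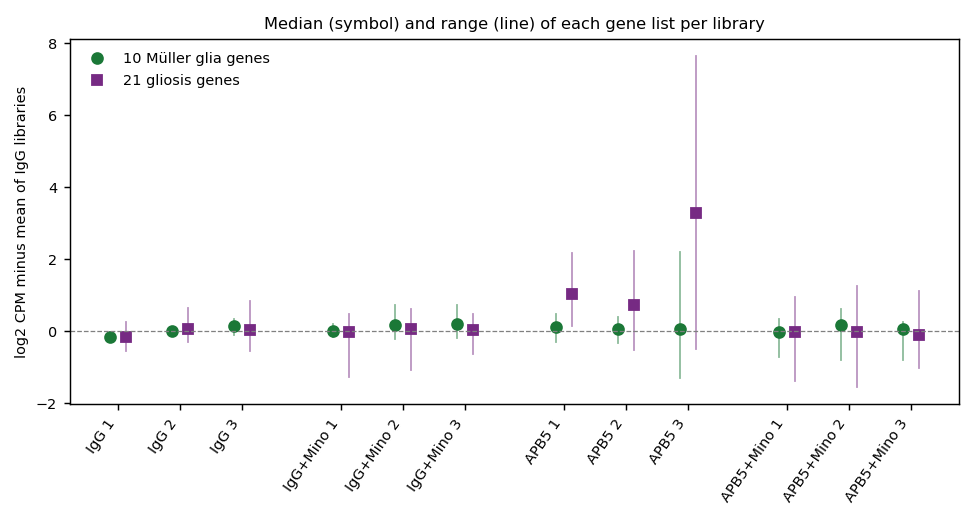
Median (symbol) and range (line) of the log2 difference in CPM from the mean of the IgG libraries, for the 10 resting Müller genes and the 21 gliosis genes in each library. The resting genes have medians from -0.17 to 0.21 in all 12 libraries, and the gliosis genes have 1.03, 0.73 and 3.28 in APB5 replicates 1 to 3 and -0.15 to 0.07 in the other 9.

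Library by library, the median difference of the 10 resting genes from the IgG mean was 0.13, 0.06 and 0.07 in APB5 replicates 1, 2 and 3, and that of the gliosis genes 1.03, 0.73 and 3.28. In APB5+Mino the gliosis medians were -0.02, -0.03 and -0.11 and those of the resting genes -0.01, 0.17 and 0.07. In APB5 replicate 3 the resting genes spread from -1.31 to 2.21 around their median. Between APB5+Mino and APB5 the gliosis genes had a median of -2.36 with 20 of 21 below 0, where 48.5% of all genes lay above 0. Of the 21, 0 passed the test, against 4.82% of all genes. For 15 of them all APB5+Mino libraries lay below all APB5 libraries, against 22.8% of all genes. Gfap was at -3.79 (adjusted P = 0.0514, edgeR's quasi-likelihood test). Without APB5 replicate 3 the median was -0.88 and 14 of 21 fell, against 26.6% of all genes that passed in either direction. The comparisons with IgG and with APB5+Mino share the APB5 libraries.

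Between APB5+Mino and IgG+Mino, of the 20 gliosis genes tested, Gfap (-0.64, adjusted P = 0.0457) and the transcription factor gene Cebpd (-0.63, adjusted P = 0.0205) fell by edgeR's quasi-likelihood test, and Osmr, the oncostatin M receptor, rose (0.78, adjusted P = 0.0198), 3 of 20 against 8.09% of all genes. None of the 20 passed without IgG+Mino replicate 3, APB5+Mino replicate 2 or APB5+Mino replicate 3, where 0.0244%, 0% and 0.00978% of all genes did. Without APB5+Mino replicate 1, 1 passed, beside 2.82% of all genes, and without IgG+Mino replicate 1, 5 passed, beside 16.4%. With all libraries the median of the 20 gliosis genes was -0.07, beside -0.20 for the 10 resting genes and -0.0092 for all genes tested. Rlbp1 and Crym were lowest in the APB5-injected group in which Gfap, at 27.9, 39.1 and 27.6 CPM, was also low. Between IgG+Mino and IgG the median of the gliosis genes was -0.02, and none passed.

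A wider list of 34 other Müller glia genes (transporters, endfoot scaffold, retinoid and transcription factor genes) was examined in the same fits. Between APB5 and IgG 0 of 34 passed, with a median of 0.16. The lowest value was that of Spc25 (-0.73, and -0.31 without APB5 replicate 3), a Müller marker whose product serves the kinetochore. Between APB5+Mino and APB5, 6 passed edgeR's quasi-likelihood test, against 4.82% of all genes. Sox8, a relative of Sox9, rose (0.86, adjusted P = 0.043), and 5 fell, among them Gpr37 (-0.59, adjusted P = 0.0447), Prdx6 (-1.11, adjusted P = 0.0476), Sox2 (-0.51, adjusted P = 0.0476) and Lhx2 (-0.54, adjusted P = 0.0488). With the replicate numbers as a block none of the 34 passed, and without APB5 replicate 3 there were 3 that rose and 13 that fell, where 26.6% of all genes passed. Between IgG+Mino and IgG 0 of 34 passed, with values from -1.01 (Hes1, a Notch target) to 0.55 (Rgr, an opsin). Hes1 was at 11.5, 16.8 and 53.2 CPM in IgG and 16.1, 13.3 and 11.2 in IgG+Mino, and Rgr at 33.2, 18.7 and 21.8 and at 13.4, 63.9 and 30.9 CPM, so that each difference lay mostly in 1 library. In the interaction 0 of 34 passed, with the highest term, 0.86, for Dmd, which encodes dystrophin and was at 96.9, 134 and 42.5 CPM in APB5 replicates 1, 2 and 3.

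Between APB5+Mino and IgG+Mino, 8 of the 34 passed, against 8.09% of all genes. Sox8 rose (0.55, adjusted P = 0.0334, edgeR's quasi-likelihood test), and 7 fell, among them the lipid carrier gene Apoe (-0.55, adjusted P = 0.0209) and Sox2 (-0.65, adjusted P = 0.0245). Sox8 was at 21.9, 20.4 and 18.9 CPM in APB5+Mino and at 15.8, 13.3 and 12.8 CPM in IgG+Mino, and Sox2, which marks Müller glia and amacrine subsets, was at 26.3, 24.0 and 24.0 against 31.3, 42.1 and 43.3 CPM.

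**Figure D5:**
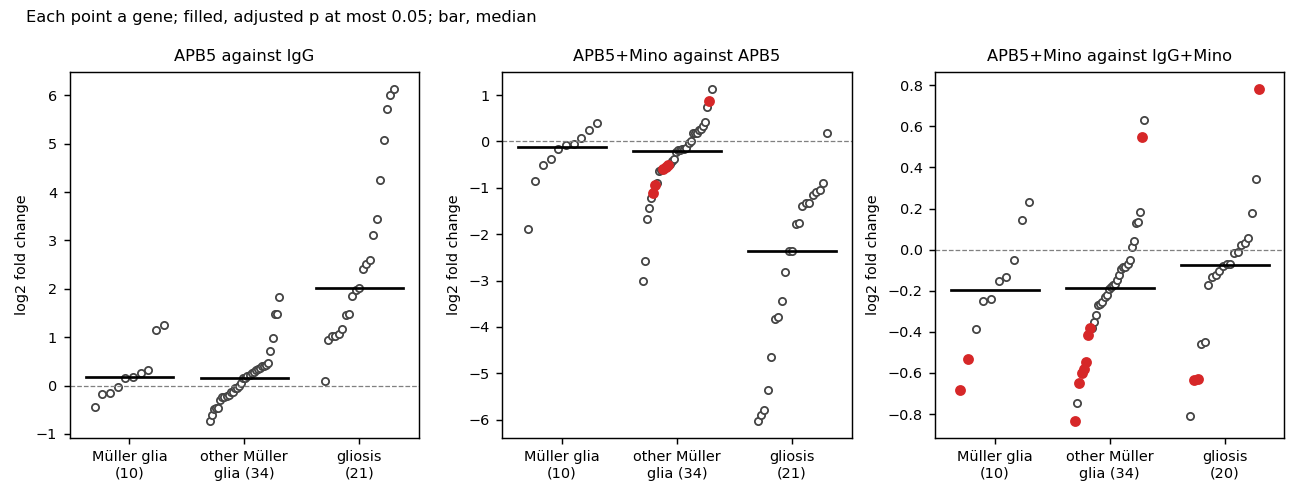
Log2 fold change of each gene of 3 lists (10 resting Müller genes, 34 other Müller genes, and 21 or 20 gliosis genes) in 3 comparisons, each with its own vertical axis. Filled points have an adjusted P of at most 0.05 and bars mark medians, which are 0.17, 0.16 and 2.01 for APB5 against IgG.

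Across the 12 libraries the 10 genes did not rise and fall as 1 unit. Pearson's r of log2 CPM was above 0 in 23 of the 45 pairs (median 0.00388), and in 28 of 45 (median 0.191) without APB5 replicate 3. These points share libraries, groups and the rod background, so the values are a description. Without that library Rlbp1 ran with Crym (r = 0.825), with Glul (0.779) and with Dkk3 (0.591) over 11 libraries. Aqp4 ran with Slc1a3 (0.774) and Kcnj10 (0.682). Other pairs ran opposite over the 11, such as Rlbp1 with Sox9 (-0.573) and Car14 (-0.543), and Car14 with Abca8a (-0.572). Crym and Glul had r = 0.786 over the 11 and -0.318 over the 12. The genes whose log2 CPM followed the mean of the 10 standardized genes most closely, among 10663 with a mean of at least 10 CPM, were Mmp15 (r = 0.946 over 12 libraries), Lrrc20 (0.925), Rap1gds1 (0.910), Vps41 (0.909), Zfat (0.905) and Slc12a7 (0.904). Without APB5 replicate 3 these 6 had r from 0.893 (Zfat) to 0.935 (Slc12a7). They were picked for the highest r over the 12 libraries, of which these 11 are part, so high values follow from the choice.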

How the data were processed

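Gene counts were deposited by the authors as whole-number read counts per gene for 12 retinal libraries, made per the labels from Illumina stranded mRNA libraries on a NextSeq sequencer. The submitters' processing notes name bcl2fastq 2.20, DRAGEN (version not given in the sources used here) and mm39. Transcript tables hold the authors' group mean normalized counts (signal) beside fold changes and p values of their own comparisons, which were not used, and 3 repeated count columns were not used.

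Samples were grouped by title. Counts were tested with edgeR 4.0.16 (R 4.3.3): TMM scaling, filterByExpr, quasi-likelihood test, two-sided, Benjamini-Hochberg adjustment over all genes tested, the 2 compared groups in each fit, and passing at an adjusted p of 0.05. Alternatives were other scalings and filters, DESeq2 1.42.0, voom (limma 3.58.1), a replicate block, an Xist covariate and omission of each library. Exon lengths came from the GRCm39 annotation. The scripts were tested on simulated counts. Every one of the 10 genes is named. Of the gliosis list, 7 fixed genes and up to 3 that passed per direction are named, and of the other Müller list up to 3 per direction, or else the extremes, with Lhx2, Sox2 and Gpr37 named where the count was 5 or fewer. Some genes that this rule names are not reported here. The genes and lists were chosen with earlier results of these data known. For APB5+Mino against APB5, libraries with the same number deviated together (r = 0.134, 0.182 and 0.14), and replicate 3 is the library high in Xist in both. No label gives a pairing, so the reported fit is unpaired and a fit with the replicate block is given beside it. Totals of 52740545 to 59411044 counts per library put at least 618 counts behind every value of the 10 genes, and intervals cover the spread between libraries.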

Additional observations from a re-analysis of the deposited data

How the results depend on the processing

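Of 810 recomputed log2 values of the 10 genes, 718 kept their direction and side of the threshold, 38 passed where the reported fit did not, 10 no longer passed and 44 changed sign, all of these without passing the test on either side. Library size as the only scaling moved the median of all genes from -0.021 to -0.11 on the log2 scale in APB5+Mino against APB5, left 0.0247% of genes past the test, gave a median of -0.21 for the Müller genes, and 0 of those passed. It changed the sign of Kcnj10 (0.0151, APB5 against IgG), Car14 (-0.0187, APB5+Mino against APB5, and -0.0225, interaction), Glul (-0.0343) and Dkk3 (-0.028) in IgG+Mino against IgG. RLE scaling and DESeq2 each gave Car14 at -0.008 in the interaction.

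For the Müller genes in APB5+Mino against APB5, 2 passed with DESeq2, 4 with voom and quality weights, 1 with no count filter, 2 with at least 10 counts in every library, 2 with all 12 libraries, 2 with the Xist covariate and 2 in the libraries low in Xist, a choice made after seeing the data, beside 27%, 34.5%, 3.8%, 8.96%, 21%, 26.3% and 9.36% of all genes in that order. For the gliosis genes the counts were 10 (of the 16 with an adjusted p), 11, 4, 2, 15, 17 and 8, and the median was -1.05 with voom and -1.06 in the libraries low in Xist. The Xist covariate gave 2 Müller and 19 gliosis genes for APB5 against IgG, where the reported count was 0 and 6.97% of all genes then passed, and for APB5+Mino against IgG+Mino it gave 0 and 0, with medians of -0.11 and -0.42. In that comparison a log2 fold of 1 left 0 of each list, all 12 libraries 0 of each, and voom called 5 Müller genes beside 24.6% of all genes (0% with all 12 libraries and with the covariate). In IgG+Mino against IgG voom called 3 Müller genes beside 6.03% of all genes, and the covariate moved the gliosis median to 1.25, though it is nearly the same split as the groups there. In the interaction DESeq2 called 1 Müller and 3 gliosis genes, voom 3 and 7 (gliosis median -0.90), the covariate 1 and 17 (median -3.15) and no count filter 0 and 1, beside 4.03%, 14.9%, 4.61% and 0.0969% of all genes.

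Signs of single genes also changed with voom for Glul (0.10) and Kcnj10 (0.0636) in APB5 against IgG, Slc1a3 (0.0138) in APB5+Mino against APB5 and Crym (0.013) in IgG+Mino against IgG. With the Xist covariate they changed for Glul (0.0147) in APB5+Mino against APB5, for Glul (-0.28), Abca8a (-0.29) and Crym (0.69) in IgG+Mino against IgG, for Sox9 (-0.0201) and Abca8a (0.0283) in APB5+Mino against IgG+Mino, and for Glul (0.29) and Kcnj10 (0.0864) in the interaction. In the libraries low in Xist, Slc1a3 was at 0.11 and Sox9 at 0.17 in APB5+Mino against APB5. The causes were not tested.

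Leaving out 1 library at a time gave 0 Müller genes for APB5 against IgG and for IgG+Mino against IgG, 0 to 3 for APB5+Mino against APB5, 0 to 5 for APB5+Mino against IgG+Mino and 0 in the interaction. Their medians ranged from 0.10 to 0.21, 0.07 to 0.17, -0.16 to -0.07, -0.26 to -0.15 and -0.45 to -0.26 in the order APB5 against IgG, IgG+Mino against IgG, APB5+Mino against APB5, APB5+Mino against IgG+Mino and interaction. For the gliosis genes, in that order, counts were 0 to 3, 0, 0 to 14, 0 to 5 and 0 to 4, and medians 0.86 to 2.50, -0.08 to 0.04, -2.76 to -0.88, -0.14 to 0.01 and -2.76 to -0.85. In the same omissions and order, 0% to 0.101%, 0.0291% to 0.0633%, 0% to 26.6%, 0% to 16.4% and 0% to 0.575% of all genes passed. Single genes that changed sign without a library stayed within -0.291 to 0.0161 (Glul) and -0.138 to 0.0812 (Kcnj10) in APB5 against IgG, -0.228 to 0.0782 (Glul), -0.198 to 0.0773 (Slc1a3) and -1.20 to 0.105 (Sox9) in APB5+Mino against APB5, -0.0321 to 0.176 (Glul), -0.0345 to 0.125 (Dkk3) and -0.162 to 0.127 (Crym) in IgG+Mino against IgG, and -0.283 to 0.0511 (Glul), -0.227 to 0.0121 (Kcnj10), -0.0552 to 0.0844 (Car14) and -0.0265 to 0.553 (Abca8a) in the interaction.

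A replicate block left 0 Müller genes past the test in APB5 against IgG, IgG+Mino against IgG and the interaction, and gave 3 (Glul, Rlbp1 and Crym) in APB5+Mino against IgG+Mino, where 20.2% of all genes then passed and same-numbered libraries had r of 0.2, 0.104 and -0.0244. The labels give no pairing in any comparison, only a number. The precision of the APB5 mean is limited by 3 libraries of which 1 stands apart, not by counts.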

Other observations

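Transcript abundances were deposited only as the authors' group means, with no replicate values, so these shares carry no error. Of the listed Aqp4 transcripts, 1 held 91.3% of the total in IgG, 88.6% in IgG+Mino, 93.1% in APB5 and 91.6% in APB5+Mino. A second Aqp4 transcript held 3.72% in IgG and 2.33% in APB5, and 6.63% and 7.75% in the matching minocycline groups. For Dkk3, 1 transcript held 86.9% in IgG, 85.5% in IgG+Mino, 87.4% in APB5 and 87.7% in APB5+Mino. Another Dkk3 transcript held 0.0674% of the total in APB5 and was near 0 in IgG, and held 1.61% in IgG+Mino and 2.83% in APB5+Mino. The principal Car14 transcript held 75.5% in IgG, 72.2% in IgG+Mino, 81.0% in APB5 and 75.1% in APB5+Mino. For Rlbp1, 1 transcript held 37.1% in IgG, 54.7% in IgG+Mino, 51.4% in APB5 and 45.7% in APB5+Mino, and another 31.1%, 21.2%, 17.7% and 33.3%, but its listed transcripts sum to well under the counts of the gene, so these shares may not describe the whole gene. No test between groups is possible with these means.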
